A study of Mus musculus with 82 samples.

Results

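The 10 genes followed here make, lengthen, desaturate and activate fatty acids. They were taken by name from the pathway, and all 10 were found in each of the 8 deposited count tables, which list between 18003 and 53278 genes of mouse sciatic nerve. All 10 also passed the filter on low counts in every table. They fall into 5 roles. Srebf1 encodes SREBP-1, the transcription factor that switches on lipid synthesis genes. Acly makes cytosolic acetyl-CoA from citrate, Acaca turns it into malonyl-CoA, and Fasn joins these units into palmitate. Elovl6 lengthens palmitate, and Elovl1 makes very long saturated and monounsaturated chains. Scd1 and Scd2 are desaturases that put a double bond into stearate and palmitate. Acsl3 couples long-chain fatty acids to CoA, the step that makes them usable, and Slc27a1 encodes FATP1, a fatty acid transport protein that also activates its cargo.

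Myelin is a membrane that is rich in lipid, and a Schwann cell that builds it makes much of the fatty acid and cholesterol itself. The fatty acids go into phospholipids and into the galactolipids with very long chains that are typical of myelin. Adipocytes of the tissue around the nerve use several of the same enzymes, Fasn and Scd1 among them, so adipocyte markers are given beside the results for Ndrg1, Fig4 and injury. In whole nerve, fewer cells of a type and less RNA per cell cannot be told apart.

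The 82 libraries fall into 22 groups. In the table with Ndrg1 there were 5 libraries labelled Mitf-Ndrg1, 5 labelled Ndrg1, 6 labelled Mitf and 6 labelled control, with no age given. Fig4 -/- nerves were set against Fig4 +/+ nerves at postnatal day 12 (P12) and in a separate table at postnatal day 4 (P4), with 3 libraries each. Nerves taken 3 days post injury were set against uninjured nerves, with 4 libraries each, all 8 of them labelled Mitf. A time course holds injured nerves labelled Mutant or Wild type at 3, 7 and 14 days, with 3 libraries each and no uninjured nerve. Libraries labelled Mitf were set against those labelled DhhCre at P21 (5 each) and Egr2Cre at P12 (3 each), and Egr2Cre Mitf against Mitf (3 each, no age given). Dhh is active in the Schwann cell lineage from its precursors on and Egr2 in Schwann cells that myelinate, so these drivers name where the recombinase acts. The labels do not say which of the groups Mitf, DhhCre, Egr2Cre and Mutant carries an altered Mitf gene or what the injury was, so directions are given by label. They do not tie libraries to separate animals either: a p-value here measures the variation among libraries of a group, which may be partly technical.

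Total estimated counts lay between 15440000 and 34530000 per library. Levels are given in CPM, counts relative to library size after TMM scaling, and adjusted p is that of edgeR's quasi-likelihood test with Benjamini-Hochberg adjustment over all genes of a comparison, called under 0.05. Fig4 RNA had a highest value of 5.87 CPM in Fig4 -/- libraries at P12, against a lowest of 18.2 CPM in Fig4 +/+ libraries, and 4.82 against 26.8 CPM at P4. Ndrg1 RNA lay between 160.5 and 191 CPM in the 10 libraries labelled Ndrg1 or Mitf-Ndrg1, against 1441 to 2052 CPM in the 12 libraries without that label. Mitf RNA was higher in the libraries labelled Mitf than in those labelled DhhCre at P21, with medians of 19.1 and 6.10 CPM (adjusted p = 2.95e-05). In the table with Ndrg1 its median was 11.6 CPM in Mitf and 17.3 CPM in control libraries, which was not called (adjusted p = 0.236), nor was Mutant against wild type at 3, 7 or 14 days (adjusted p = 1, 0.352 and 0.505). Markers of myelinating Schwann cells were abundant in the uninjured nerves and low in the time course, where the sum of 9 markers was between 699 and 3598 CPM in 17 of 18 libraries and 12779 CPM in replicate 1 of Mutant nerves at 7 days. Skeletal muscle and adipocyte markers varied widely between libraries of 1 group.

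In control nerves of the table with Ndrg1, per kilobase of transcript, Scd2 had the highest level of the 10 genes, 1416 ± 163 CPM per kilobase (SD, n = 6). Elovl1 followed with 341 ± 52, Scd1 with 250.4 ± 24.3 and Elovl6 with 131 ± 12.8 CPM per kilobase, and these 4 levels did not overlap within 1 SD. Acly (87.2 ± 9.61), Fasn (73.1 ± 13.7), Slc27a1 (56.7 ± 6.54) and Acsl3 (44.3 ± 5.9 CPM per kilobase) came next, each overlapping with its neighbour within 1 SD. Acaca and Srebf1 were lowest and could not be ordered, at 28.4 ± 2.36 and 28.3 ± 3.75 CPM per kilobase. The lengths are those of the longest principal transcript in GENCODE vM21 on mm10.

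Scd2 and Scd1 lie in the same gene cluster on chromosome 19, with Scd4 between them, at 44293674 to 44306864 on the plus strand and 44394455 to 44407879 on the minus strand (mm10). Srebf1 (60199089 to 60222581, minus), Acaca (84129672 to 84401651, plus), Acly (100476353 to 100528000, minus) and Fasn (120805846 to 120824547, minus) are all on chromosome 11. Elovl1 is on chromosome 4 (118428093 to 118432953, plus), Elovl6 on chromosome 3 (129532355 to 129638495, plus), Acsl3 on chromosome 1 (78657825 to 78707743, plus) and Slc27a1 on chromosome 8 (71568882 to 71587302, plus).

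Because most of these genes moved together in several comparisons, the 250 bases before their start sites are shown for 5 genes. They come from RefSeq (GRCm38.p6), whose table held 13 such windows for 8 of the 10 genes. The windows were searched on both strands for the CCAAT box, the motif of NF-Y, a factor known to work with SREBP (CCAAT or ATTGG), for a sterol regulatory element (TCACNCCAC or GTGGNGTGA) and for the E-box CACGTG. Capitals mark the matches, and each sequence ends at the base before the start site. Fasn is the palmitate synthase, and Acly and Acsl3 stand for the steps before and after it. Elovl1 is shown for elongation at its first start site, and Srebf1 at its first and last. The windows of Acaca and Elovl6, the second of Elovl1 and of Slc27a1 and the middle one of Srebf1 are not shown and held no match. The Acaca window precedes a start site at 84195438, inside the gene, which begins at 84129672. The bases before that beginning were not searched. The windows are, in the order of the lines, chr11:120824548-120824797 (minus strand), chr11:100528001-100528250 (minus), chr1:78657575-78657824 (plus), chr4:118427843-118428092 (plus), chr11:60222582-60222831 (minus) and chr11:60210472-60210721 (minus).
Fasn: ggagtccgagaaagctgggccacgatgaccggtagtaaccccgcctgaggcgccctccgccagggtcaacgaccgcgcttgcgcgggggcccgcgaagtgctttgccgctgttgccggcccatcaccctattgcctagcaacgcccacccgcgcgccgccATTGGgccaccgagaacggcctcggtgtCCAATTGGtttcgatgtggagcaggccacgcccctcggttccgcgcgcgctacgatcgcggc
Acly: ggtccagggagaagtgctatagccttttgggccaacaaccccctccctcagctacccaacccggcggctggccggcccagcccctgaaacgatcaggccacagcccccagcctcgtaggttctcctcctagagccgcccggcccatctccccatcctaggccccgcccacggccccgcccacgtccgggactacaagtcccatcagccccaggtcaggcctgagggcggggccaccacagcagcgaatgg
Acsl3: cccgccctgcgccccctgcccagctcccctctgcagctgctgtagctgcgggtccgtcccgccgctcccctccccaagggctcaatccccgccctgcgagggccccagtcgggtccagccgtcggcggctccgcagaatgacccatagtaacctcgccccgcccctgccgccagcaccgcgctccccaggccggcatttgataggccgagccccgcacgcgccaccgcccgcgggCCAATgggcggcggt
Elovl1: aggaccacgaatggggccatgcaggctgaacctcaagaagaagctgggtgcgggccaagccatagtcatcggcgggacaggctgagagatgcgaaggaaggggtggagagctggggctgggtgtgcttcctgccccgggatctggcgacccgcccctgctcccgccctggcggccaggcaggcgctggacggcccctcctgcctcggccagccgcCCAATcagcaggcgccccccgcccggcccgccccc
Srebf1, first start site: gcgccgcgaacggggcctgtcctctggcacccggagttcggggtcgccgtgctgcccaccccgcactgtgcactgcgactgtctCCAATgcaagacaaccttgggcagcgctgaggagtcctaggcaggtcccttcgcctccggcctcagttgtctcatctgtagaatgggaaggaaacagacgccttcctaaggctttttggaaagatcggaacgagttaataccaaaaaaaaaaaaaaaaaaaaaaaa
Srebf1, last start site: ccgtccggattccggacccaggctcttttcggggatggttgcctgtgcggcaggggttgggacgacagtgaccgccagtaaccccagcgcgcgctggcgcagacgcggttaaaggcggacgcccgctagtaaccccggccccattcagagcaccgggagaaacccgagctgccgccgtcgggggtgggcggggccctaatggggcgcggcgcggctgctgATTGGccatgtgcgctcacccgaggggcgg

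A CCAAT box was present in 7 of the 13 windows, against 33.8% of all 32851 windows in the RefSeq table. By gene it was present in 5 of the 8, some of which have several windows, and no share by gene was obtained. The Fasn window held it at positions -90, -62 and -59 from the start site, where the matches at -62 and -59 overlap on opposite strands, Acsl3 at -15, Elovl1 at -35, and Srebf1 at -166 and, before its last start site, at -30. The Acly window held none of the 3 motifs. The sterol regulatory element in these letters was in 0 of the 13 windows and in 1.05% of all windows, and the E-box in 1 of the 13, a Slc27a1 window, and in 6.02% of all. These letter matches are a description of the windows and no measure of binding.

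**Figure D1:**
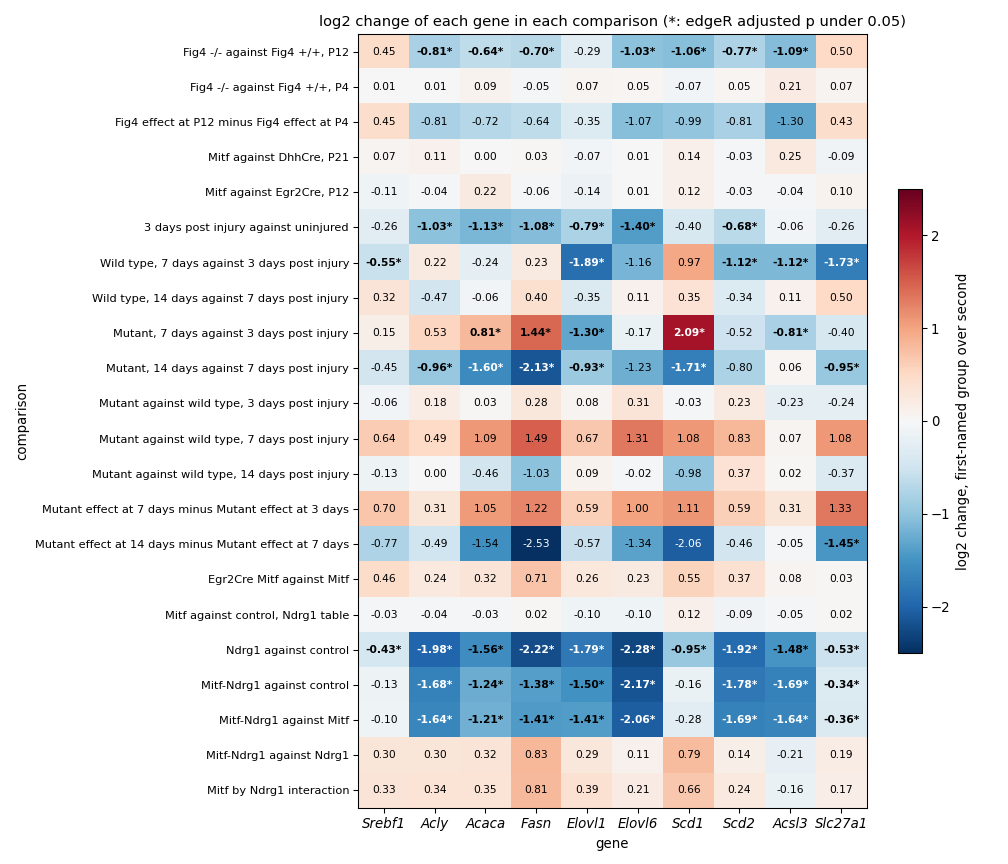
The log2 change of each of the 10 genes (columns) in each of the 22 comparisons (rows), with blue for lower and red for higher in the group named first, and an asterisk where edgeR's adjusted p was under 0.05. All 10 cells are called in Ndrg1 against control, 7 in Fig4 -/- against Fig4 +/+ at P12 and 6 in injured against uninjured nerves, while the rows for Mitf against DhhCre, Egr2Cre and control hold none.

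The question of the table with Ndrg1 is what the labels Ndrg1 and Mitf change alone and together. Ndrg1 encodes a cytoplasmic protein that is abundant in Schwann cells and whose loss causes a demyelinating neuropathy. All 10 genes were lower in nerves labelled Ndrg1 than in control nerves, and 9 of the 10 did not overlap between the groups, against 21.2% of all genes with every Ndrg1 library below every control library. The comparison as a whole was wide: 60.5% of all genes were called, 29.7% of all genes lower, and the median log2 change was -1.68 over the 10 genes and 0.02 over all genes tested. Elovl6, Fasn, Acly and Scd2 had the greatest changes of the 10 genes, and Srebf1 and Slc27a1 the smallest.

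Srebf1 had 92, 96.6, 51.5, 101 and 111 CPM in Ndrg1 nerves, against a lowest of 96.6, a median of 123 and a highest of 143 in control nerves. This was the only one of the 10 genes whose groups overlapped, and its log2 change was -0.43 (SE 0.133, adjusted p = 0.00738). Acly had 109, 88.8, 92, 97 and 98.3 CPM in Ndrg1 nerves, against a lowest of 329, a median of 403 and a highest of 418 in control nerves. Acaca had 110.0, 89.3, 80.3, 94.7 and 84.8 CPM in Ndrg1 nerves, against a lowest of 235, a median of 271 and a highest of 298 in control nerves. Every Ndrg1 library lay far below every control library for both genes, with log2 changes of -1.98 (SE 0.121, adjusted p = 1.35e-12) for Acly and -1.56 (SE 0.118, adjusted p = 5.57e-11) for Acaca. Fasn had 193, 150.5, 102, 166 and 178 CPM in Ndrg1 nerves, against a lowest of 546, a median of 806 and a highest of 852 in control nerves. Its log2 change was -2.22 (SE 0.257, adjusted p = 1.94e-07), so the mean of 158 ± 34.9 CPM in Ndrg1 nerves stood against 735 ± 138 CPM in control nerves (SD, n = 5 and 6).

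Genes of elongation and desaturation fell as well. Elovl6 had 209, 136, 168, 162 and 128 CPM in Ndrg1 nerves, against a lowest of 683, a median of 777 and a highest of 860.3 in control nerves, and its log2 change of -2.28 (SE 0.149, adjusted p = 4.22e-12) was the greatest of the 10 genes. Elovl1 had 206, 176, 117, 194 and 199 CPM in Ndrg1 nerves, against a lowest of 522, a median of 613 and a highest of 764 in control nerves, a log2 change of -1.79 (SE 0.168, adjusted p = 2.75e-09). Scd2 had 2323, 1808, 2006, 2096 and 1939 CPM in Ndrg1 nerves, against a lowest of 6476, a median of 8058 and a highest of 8670.3 in control nerves, a log2 change of -1.92 (SE 0.156, adjusted p = 1.77e-10). The other desaturase had a smaller log2 change. Scd1 had 647, 670.1, 773, 534 and 513 CPM in Ndrg1 nerves, against a lowest of 1002, a median of 1261 and a highest of 1310.1 in control nerves, and its log2 change was -0.95 (SE 0.274, adjusted p = 0.0053). Of the activating enzymes, Acsl3 had 62.2, 49, 85.5, 60.7 and 56.2 CPM in Ndrg1 nerves, against a lowest of 144, a median of 183 and a highest of 198 in control nerves, a log2 change of -1.48 (SE 0.142, adjusted p = 3.88e-09). Slc27a1 had 121, 119.6, 75.5, 125 and 107 CPM in Ndrg1 nerves, against a lowest of 143, a median of 153 and a highest of 194 in control nerves, a log2 change of -0.53 (SE 0.1, adjusted p = 6.73e-05).

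**Figure D2:**
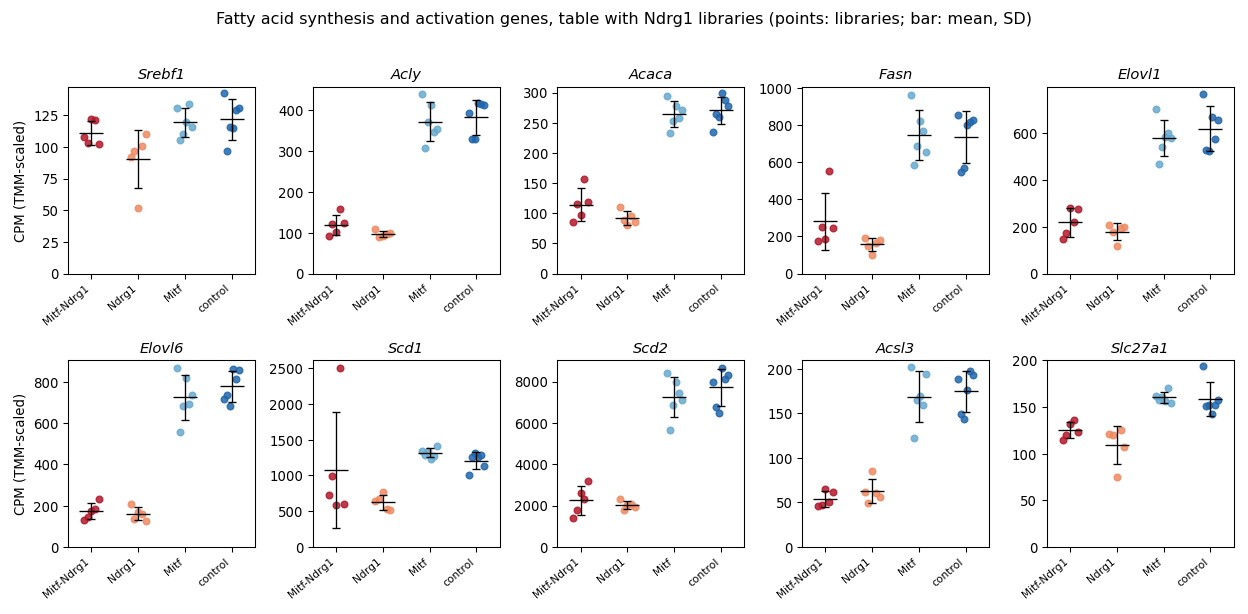
CPM of each of the 10 genes in every library of the table with Ndrg1, by label, with points for libraries and bars for the mean and SD (n = 5, 5, 6 and 6). In 9 of the 10 panels the Ndrg1 libraries lie below every control library, and the Fasn and Scd1 panels show replicate 4 of Mitf-Ndrg1 above its group at 551 and 2503 CPM.

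Related genes were counted from lists of the pathway. All 18 genes of cholesterol synthesis, which SREBP-2 controls, were lower in Ndrg1 than in control nerves, with a median log2 change of -1.88. Fdft1, squalene synthase, had a log2 change of -1.88 (SE 0.0938, adjusted p = 3.17e-14), and Msmo1 of -1.59 (SE 0.0879, adjusted p = 2.04e-13). Of 6 genes that supply acetyl-CoA and NADPH, 4 were lower, among them Acss2, which makes acetyl-CoA from acetate (log2 change -2.17, SE 0.136), and the citrate carrier Slc25a1 (log2 change -1.42, SE 0.103). Of 9 other elongation genes tested, 6 were lower and 2 higher, with Elovl7 at -1.86 (SE 0.112) and Hacd4 at 1.32 (SE 0.102). Of 5 other desaturases tested, Fads1, Fads2, Fads3 and Fads6 were lower and Scd4 higher. Of 11 genes of SREBP and carbohydrate-response control, 7 were lower, with Insig1 at -2.08 (SE 0.111), Srebf2 at -1.99 (SE 0.147) and Scap at -1.37 (SE 0.128), and 2 were higher. Of 8 other acyl-CoA synthetases and transport proteins tested, 2 were lower and 1 higher. Of 13 fatty acid oxidation genes 4 were lower and 2 higher, with a median of -0.20; 60.5% of all genes were called in this comparison.

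Cell type markers moved in the same libraries. The 9 markers of myelinating Schwann cells, all called lower, summed to between 47844 and 61219 CPM in Ndrg1 nerves and to between 158090.0 and 187446 CPM in control nerves, a median log2 change of -1.35. Of the 8 macrophage markers 7 were called higher, and they summed to between 2894 and 3925 CPM in Ndrg1 nerves and between 401 and 539.6 CPM in control nerves. The part of these in the result for the 10 genes was not tested. The 10 adipocyte markers summed to between 101 and 221 CPM in Ndrg1 nerves and between 55.5 and 266 CPM in control nerves, and none of them was called.

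With the label Mitf added, 8 of the 10 genes were lower in Mitf-Ndrg1 nerves than in control nerves, where 59.1% of all genes were called, 28.5% lower. The same 8 were lower than in nerves labelled Mitf, where 57.6% were called, 27.9% lower. Srebf1 and Scd1 were not called in either. These comparisons share libraries with each other and with the one above, so their values are set side by side and not counted as separate evidence. Elovl6 had 131, 144, 175, 182 and 234 CPM in Mitf-Ndrg1 nerves, with a log2 change of -2.17 (SE 0.148) against control and -2.06 (SE 0.148) against Mitf. Scd2 had 1406, 1767, 2587, 2305 and 3181 CPM, with -1.78 (SE 0.155) against control and -1.69 (SE 0.154) against Mitf, and Acsl3 had 45.6, 47.6, 65.3, 50.3 and 61.6 CPM, with -1.69 (SE 0.143) and -1.64 (SE 0.143). Acly had 92.6, 121, 102, 157 and 124 CPM (log2 change -1.68 against control, SE 0.12), Elovl1 146, 171, 277, 219 and 276 CPM (log2 change -1.50, SE 0.166) and Acaca 85.8, 115, 97.8, 156 and 118 CPM (log2 change -1.24, SE 0.117). None of these 6 genes had a Mitf-Ndrg1 library that reached the lowest control library, which held for 20.2% of all genes. Slc27a1 had 115, 120.4, 132, 136 and 123 CPM, with the smallest log2 change of the 8, -0.34 (SE 0.0996, adjusted p = 0.00533) against control.

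Fasn and Scd1 were uneven among the Mitf-Ndrg1 libraries. Fasn had 175, 248, 187, 551 and 246 CPM in replicates 1 to 5, and Scd1 730.2, 989, 587, 2503 and 597 CPM. In both genes replicate 4 was far above the other 4 libraries. For Fasn it reached the lowest control library, which had 546 CPM. For Scd1 it was above the highest control library, which had 1310 CPM. Fasn had a log2 change of -1.38 (SE 0.248, adjusted p = 6.61e-05) against control, and Scd1 of -0.16 (SE 0.269, adjusted p = 0.6252). All 10 adipocyte markers were called higher in Mitf-Ndrg1 than in control nerves, and their sum was 937, 689, 206, 944 and 94.2 CPM in Mitf-Ndrg1 replicates 1 to 5, against between 55.5 and 266 CPM in control libraries. Without replicates 1, 2 and 4, which were highest in these markers, Scd1 was lower in Mitf-Ndrg1 nerves, with a log2 change of -1.0 (SE 0.134, adjusted p = 3.59e-06) against control and -1.14 (SE 0.135, adjusted p = 7.71e-07) against Mitf. That choice was made after seeing the data, and it leaves 2 Mitf-Ndrg1 libraries. Mean log2 levels of skeletal muscle markers were 8.86, 9.06 and 11.1 in replicates 1, 2 and 4. In replicates 3 and 5 they were 1.59 and 1.44. The choice therefore took out muscle-rich and adipocyte-rich libraries together, and the part of each cannot be told apart.

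**Figure D3:**
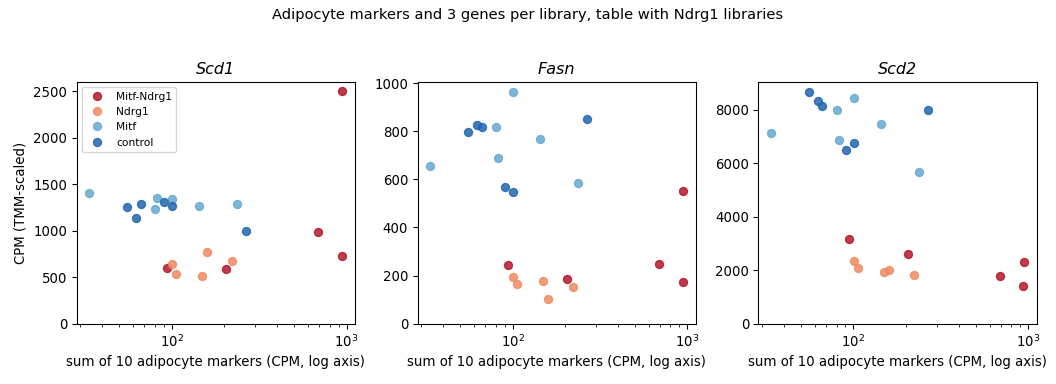
CPM of Scd1, Fasn and Scd2 against the summed CPM of 10 adipocyte markers (log axis) in the 22 libraries of the table with Ndrg1, coloured by label. The Mitf-Ndrg1 library with 2503 CPM of Scd1 has 944 CPM of adipocyte markers, while Scd2 in the 10 libraries labelled Ndrg1 or Mitf-Ndrg1 lies between 1406 and 3181 CPM.

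Set against Ndrg1 nerves directly, none of the 10 genes was called in Mitf-Ndrg1 nerves by edgeR or DESeq2, with 1.47% of all genes called. At an unadjusted p under 0.05 were 5 of the 10 and 17.6% of all genes. Fasn had a log2 change of 0.83 (SE 0.253, adjusted p = 0.0939) and Scd1 of 0.79 (SE 0.283, adjusted p = 0.154), while Elovl6 had 0.11 (SE 0.146) and Scd2 0.14 (SE 0.154). Without Mitf-Ndrg1 replicate 1 the count was 2, Acaca at 0.41 (SE 0.112, adjusted p = 0.0478) and Fasn at 0.96 (SE 0.252, adjusted p = 0.0415). Without replicates 1, 2 and 4 it was also 2, Elovl1 at 0.65 (SE 0.172, adjusted p = 0.0436) and Scd2 at 0.52 (SE 0.133, adjusted p = 0.037). Over all genes 545 and 521 were called in these fits, in place of 234. The interaction of the labels Mitf and Ndrg1 was called for none of the 10 genes by either tool, with 0.39% of all genes called, and 3 of the 10 and 13.9% of all genes were at an unadjusted p under 0.05. Fasn had the greatest value, 0.81 (SE 0.341, adjusted p = 0.281).

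The Fig4 nerves give the same genes at both ages. Fig4 encodes a phosphatase of phosphoinositides that serves the late endosome and lysosome. At P12, 7 of the 10 genes were lower in Fig4 -/- than in Fig4 +/+ nerves, against 1.16% of all genes called lower and 3.03% in either direction, and none of the 7 overlapped between the groups, against 11.8% of all genes with every Fig4 -/- library below every Fig4 +/+ library. The 7 were the 3 synthesis genes, Elovl6, both desaturases and Acsl3. The median log2 change was -0.73 over the 10 genes and 0.00 over all genes. Acly had 149.6, 149 and 161 CPM in Fig4 -/- nerves, against 281, 280.3 and 242 in Fig4 +/+ nerves, a log2 change of -0.81 (SE 0.115, adjusted p = 0.00307). Acaca had 165, 170.3 and 215 CPM in Fig4 -/- nerves, against 290.3, 336 and 231 in Fig4 +/+ nerves, with -0.64 (SE 0.156, adjusted p = 0.0498) next to the threshold. Fasn had 69.1, 89.3 and 76.8 CPM in Fig4 -/- nerves, against 118, 149 and 114 in Fig4 +/+ nerves, with -0.70 (SE 0.146, adjusted p = 0.0263). All 3 Fig4 -/- libraries were below all 3 Fig4 +/+ libraries in each of these genes.

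Acsl3, Scd1 and Elovl6 had the greatest log2 changes of the 10. Acsl3 had 106, 105 and 123 CPM in Fig4 -/- nerves, against 260.0, 256 and 197 in Fig4 +/+ nerves, a log2 change of -1.09 (SE 0.138, adjusted p = 0.00133). Scd1 had 1307, 1149.8 and 1629 CPM in Fig4 -/- nerves, against 2998, 3175 and 2368 in Fig4 +/+ nerves, with -1.06 (SE 0.165, adjusted p = 0.00512). No Fig4 -/- library of either gene reached a Fig4 +/+ library. Elovl6 had 509, 431 and 651 CPM in Fig4 -/- nerves, against 1249, 1207 and 792 in Fig4 +/+ nerves, with -1.03 (SE 0.196, adjusted p = 0.0176). Scd2 had 4287, 4050.5 and 5115 CPM in Fig4 -/- nerves, against 8570.3, 7941 and 6483 in Fig4 +/+ nerves, with -0.77 (SE 0.158, adjusted p = 0.0233). The remaining 3 genes overlapped between the groups and were not called. Elovl1 had 285, 271 and 261 CPM in Fig4 -/- nerves, against 390.1, 358 and 251 in Fig4 +/+ nerves (log2 change -0.29, SE 0.154, adjusted p = 0.369). Slc27a1 averaged 32.7 ± 9.59 CPM in Fig4 -/- nerves and 23.2 ± 1.08 CPM in Fig4 +/+ nerves (SD, n = 3 each), with a log2 change of 0.50 (SE 0.21, adjusted p = 0.25), and Srebf1 had 0.45 (SE 0.27, adjusted p = 0.435).

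Of the 18 cholesterol synthesis genes 12 were lower in Fig4 -/- nerves at P12, with a median of -0.77. Lss, lanosterol synthase, had a log2 change of -1.27 (SE 0.171, adjusted p = 0.00209). Outside that list, Acss2 was lower (log2 change -1.25, SE 0.216, adjusted p = 0.0115), as were Fads1 (log2 change -0.59, SE 0.131, adjusted p = 0.0331) and Insig1 (log2 change -1.03, SE 0.204, adjusted p = 0.0244), each the only gene of its list that was called. None of 12 fatty acid oxidation genes, of 9 other elongation genes or of 8 other acyl-CoA synthetases and transport proteins tested was called. In the same libraries the 9 myelin markers summed to between 92709 and 113874 CPM in Fig4 -/- nerves and between 121136 and 172733 CPM in Fig4 +/+ nerves, with 3 of the 9 called lower. Of the 8 macrophage markers 6 were called higher, with sums between 691 and 908 CPM in Fig4 -/- nerves and between 424 and 499.7 CPM in Fig4 +/+ nerves. The part of myelin and macrophage markers in the result was not tested. Skeletal muscle markers summed to between 9.94 and 11.1 CPM in Fig4 -/- nerves and between 12.6 and 109.7 CPM in Fig4 +/+ nerves, and adipocyte markers to between 56 and 137 CPM in Fig4 -/- nerves and between 80.6 and 142 CPM in Fig4 +/+ nerves. With 3 libraries a group the calls were close to the threshold: the count of 7 was 3 without Fig4 +/+ replicate 1, 3 without Fig4 +/+ replicate 2, 3 without Fig4 -/- replicate 1 and 2 without Fig4 -/- replicate 2, with Acly and Acsl3 called in each of these. Over all genes 159, 177, 275 and 146 were then called, in place of 435. With the replicate number as a block 4 genes were called, with an adipocyte covariate 4 and with a skeletal muscle covariate 1, Acsl3. The muscle sums did not overlap between the groups, so muscle content and genotype cannot be told apart by the muscle covariate.

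At P4 none of the 10 genes was called by edgeR or DESeq2, none had an unadjusted p under 0.05 (0.846% of all genes did), and 0.00672% of all genes were called. The log2 changes lay between -0.07 for Scd1 and 0.21 for Acsl3. Fasn had 675, 623 and 266 CPM in Fig4 -/- nerves, against 181, 697 and 736 in Fig4 +/+ nerves, and Scd2 had 4812, 5089.7 and 2278 CPM, against 1454, 5130.4 and 5181. In both genes Fig4 -/- replicate 3 and Fig4 +/+ replicate 1 were low and the other 4 libraries close together. The same 2 libraries had the highest skeletal muscle marker sums, 9941 and 12428 CPM, and adipocyte marker sums, 407 and 1332 CPM. The SE of Fasn was 0.605 on the log2 scale and that of Scd2 0.5676, so changes of the size seen at P12 were not detectable for these genes at P4. With an adipocyte covariate Fasn alone of the 10 was called lower at P4, with a log2 change of -0.59 (SE 0.105, adjusted p = 0.0406). That fit called 346 of all genes, in place of 1, so the gain was not particular to Fasn.

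The difference between the ages was tested as the Fig4 effect at P12 minus that at P4. None of the 10 genes was called by edgeR, with 0.167% of all genes called. At an unadjusted p under 0.05 were 3 of the 10 and 7.29% of all genes, and DESeq2 called 2 of the 10 and 1.05% of all genes. Acsl3 had the greatest difference, -1.30 (SE 0.279, adjusted p = 0.149), followed by Elovl6 with -1.07 (SE 0.474, adjusted p = 0.667) and Scd1 with -0.99 (SE 0.294, adjusted p = 0.371). Without the 2 libraries rich in muscle and adipocyte markers, a choice made after seeing the data, Acsl3 differed between the ages by -1.20 (SE 0.193, adjusted p = 0.0196). That fit called 47 of all genes, in place of 23.

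**Figure D4:**
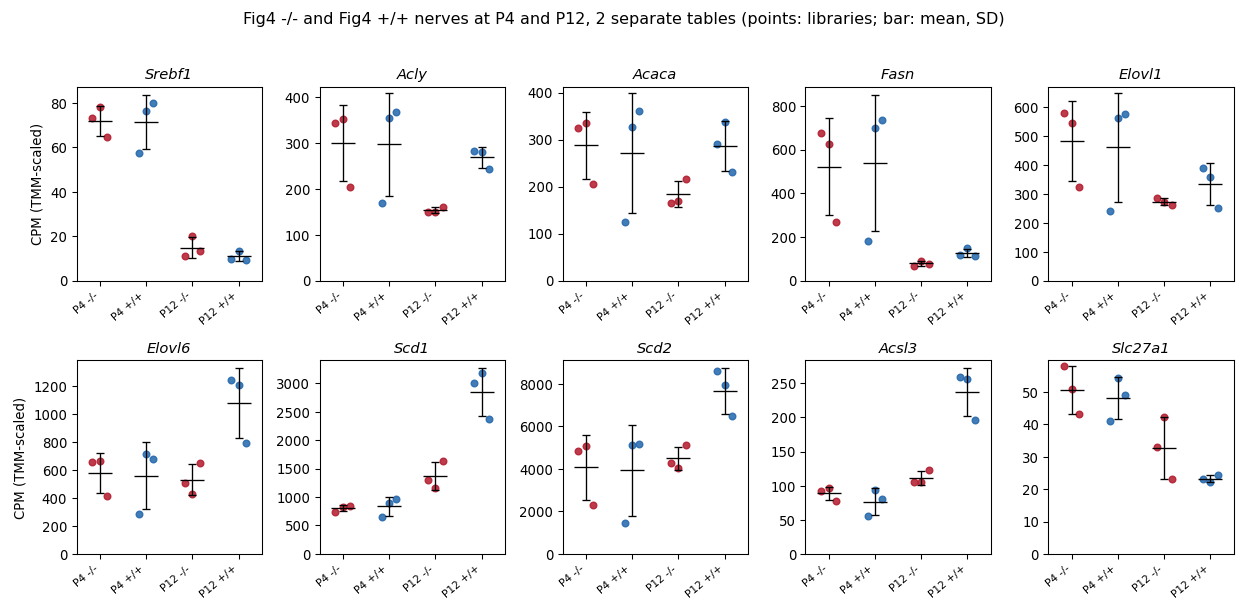
CPM of each of the 10 genes in the Fig4 -/- (red) and Fig4 +/+ (blue) libraries at P4 and P12, with points for libraries and bars for the mean and SD (n = 3 each); the ages are from separate tables. At P12 the Acsl3 values are 106, 105 and 123 CPM in Fig4 -/- nerves, below 197 to 260.0 CPM in Fig4 +/+ nerves, and at P4 the groups overlap for all 10 genes.

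Injury was the next comparison. At 3 days post injury, 6 of the 10 genes were lower than in uninjured nerves, against 10.4% of all genes called lower and 22.1% in either direction, and the 6 did not overlap between the groups, against 13.9% of all genes with every injured library below every uninjured library. The median log2 change was -0.74 over the 10 genes and 0.03 over all genes. Acly had 125, 101, 162 and 162 CPM in injured nerves, against 288, 266, 267 and 305 in uninjured nerves, a log2 change of -1.03 (SE 0.167, adjusted p = 0.00389). Acaca had 126, 129, 191 and 184 CPM in injured nerves, against 330.2, 368, 335 and 347 in uninjured nerves, with -1.13 (SE 0.166, adjusted p = 0.00301). Fasn had 346, 247, 368 and 381 CPM in injured nerves, against 672, 665, 712 and 781 in uninjured nerves, with -1.08 (SE 0.166, adjusted p = 0.00351). For all 3 genes the highest injured library was below the lowest uninjured library by a wide margin. Elovl6 had 95.7, 99.97, 214 and 171 CPM in injured nerves, against 429, 397, 389.6 and 316 in uninjured nerves, and at -1.40 (SE 0.259, adjusted p = 0.00656) changed most of the 10. Elovl1 had 207, 199, 410.2 and 332 CPM in injured nerves, against 558, 465, 493 and 470.3 in uninjured nerves (log2 change -0.79, SE 0.233, adjusted p = 0.035). Scd2 had 4282, 2529, 4438 and 3798 CPM in injured nerves, against 5726, 6311, 6466 and 5635 in uninjured nerves (log2 change -0.68, SE 0.212, adjusted p = 0.0438). Elovl1 and Scd2 were the calls nearest to the threshold: the adjusted p of Elovl1 was between 0.051 and 0.0965 without any 1 of 7 libraries (all but injured replicate 3), and that of Scd2 between 0.0523 and 0.112 without any 1 of 6 (all but injured replicates 1 and 3). Neither was called with an adipocyte or a skeletal muscle covariate, nor Scd2 with the replicate number as a block.

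The other 4 genes overlapped between injured and uninjured nerves. Srebf1 averaged 129 ± 22 CPM in injured nerves and 155 ± 19.2 CPM in uninjured nerves (SD, n = 4 each), with -0.26 (SE 0.152, adjusted p = 0.256), and Scd1 had -0.40 (SE 0.233, adjusted p = 0.254). Acsl3 had 253, 41.4, 62.8 and 56.3 CPM in injured nerves, against 126, 115, 96.8 and 93.6 in uninjured nerves, and Slc27a1 had 197, 90.9, 114 and 115 CPM, against 145, 158, 167 and 150.2. Injured replicate 1 was above every uninjured library in both genes, and the other 3 injured libraries were below every uninjured library. Without that replicate Acsl3 was lower in injured nerves, with a log2 change of -1.01 (SE 0.168, adjusted p = 0.00315), and so was Slc27a1, with -0.54 (SE 0.128, adjusted p = 0.0134).

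Among the related genes, 15 of 18 for cholesterol synthesis were lower after injury, with a median of -1.03 and Lss at -1.50 (SE 0.146, adjusted p = 0.00103). Slc25a1 (log2 change -0.85, SE 0.146) and Me1, malic enzyme (log2 change -0.61, SE 0.165), were lower in the supply list, and Elovl7, Elovl4 and Tecr were lower and Hacd1 higher among the elongation genes. Insig1, Srebf2, Mbtps1 and Scap were lower in the control list, with Insig1 at -1.20 (SE 0.203). Acsl5, another acyl-CoA synthetase, was higher (log2 change 0.83, SE 0.258), Fads6 was lower (log2 change -0.82, SE 0.149), and none of 13 oxidation genes was called. The 9 myelin markers summed to between 38199 and 95026 CPM in injured nerves and between 107058 and 133955 CPM in uninjured nerves, and all 4 markers of the Schwann cell lineage were called lower. Macrophage markers summed to between 801 and 2148 CPM in injured nerves and between 406 and 1027 CPM in uninjured nerves, and adipocyte markers to between 1089 and 1628 CPM in injured nerves and between 661 and 2041 CPM in uninjured nerves. The part of these markers was not tested.

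The time course gives the later days in a separate table, whose nerves at 3 days were unlike those above. Its wild-type nerves at 3 days had myelin marker sums of 2817 to 3598 CPM, against 38199 to 95026 CPM in the injured Mitf nerves. Elovl6 averaged 18.6 against 145 CPM and Scd2 842 against 3762 CPM. The cause was not tested, and the tables are not read as a single series. In wild-type nerves 5 of the 10 genes were lower at 7 days than at 3 days post injury, against 19.6% of all genes called lower and 39.1% in either direction, so the share among the 10 is to be read against a wide change. Slc27a1 had the smallest adjusted p of the 10, with 102, 124 and 126 CPM at 3 days and 32.7, 33.2 and 40.5 at 7 days, a log2 change of -1.73 (SE 0.168, adjusted p = 2.95e-06). Elovl1 had 202, 204 and 217 CPM at 3 days and 46.2, 66.5 and 55.4 at 7 days (log2 change -1.89, SE 0.265, adjusted p = 7.19e-05). The groups of neither gene overlapped. This held for 6 of the 10 genes, and the share of all genes was not obtained. Scd2 (log2 change -1.12, SE 0.272, adjusted p = 0.00463), Acsl3 (log2 change -1.12, SE 0.169, adjusted p = 0.00014) and Srebf1 (log2 change -0.55, SE 0.182, adjusted p = 0.0258) were the other 3 genes called. The synthesis genes were not called: Acly, Acaca and Fasn had log2 changes of 0.22 (SE 0.268), -0.24 (SE 0.301) and 0.23 (SE 0.437). With a skeletal muscle covariate 3 genes were called, and the Srebf1 call was lost without any 1 of 4 libraries, wild-type replicates 2 and 3 at 3 days and 1 and 3 at 7 days, with log2 changes between -0.56 and -0.46. Cell type markers moved over the same days. In wild-type nerves the myelin markers summed to between 2817 and 3598 CPM at 3 days and between 699 and 951 CPM at 7 days, and the fibroblast markers to between 2497 and 3198 CPM at 3 days and between 5880.5 and 9495 CPM at 7 days. Skeletal muscle markers summed to between 270.1 and 1961 CPM at 3 days and between 2788 and 33236 CPM at 7 days, and adipocyte markers, whose groups overlapped, to between 2398 and 5639 CPM at 3 days and between 3259.7 and 5727 CPM at 7 days. The muscle sums did not overlap, so muscle content and day cannot be told apart by the muscle covariate. The part of myelin and fibroblast markers in the 5 calls was not tested.

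Between 7 and 14 days none of the 10 was called in wild-type nerves by edgeR, with 7.41% of all genes called. At an unadjusted p under 0.05 were 1 of the 10 and 32.2% of all genes. DESeq2 called 16% of all genes and that 1 of the 10, Slc27a1, which had 57.5, 45.7 and 47.1 CPM at 14 days.

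In Mutant nerves Fasn and Scd1 were highest at 7 days. Fasn had 109.5, 119 and 87.9 CPM at 3 days, 419.8, 172 and 270.0 at 7 days and 93.1, 39.4 and 64 at 14 days. Scd1 had 692, 351 and 317 CPM at 3 days, 2949.6, 1149 and 1672 at 7 days and 728, 641 and 400.1 at 14 days. In both genes, and in Acaca, every library at 7 days was above every library at 3 and at 14 days. Of the 10 genes, 3 were higher and 3 lower in every library at 7 than at 3 days, and 6 lower at 14 than at 7 days. The share of all genes that did so was not obtained. At 7 against 3 days 3 genes were higher, Scd1 (log2 change 2.09, SE 0.505, adjusted p = 0.00535), Fasn (log2 change 1.44, SE 0.444, adjusted p = 0.0213) and Acaca (log2 change 0.81, SE 0.301, adjusted p = 0.0494), and 2 were lower, Elovl1 (log2 change -1.30, SE 0.261, adjusted p = 0.00154) and Acsl3 (log2 change -0.81, SE 0.168, adjusted p = 0.00194), with 33.4% of all genes called, 16.2% higher and 17.2% lower. At 14 against 7 days 6 of the 10 were lower, against 9.16% of all genes called lower and 17.7% in either direction. They were Fasn (log2 change -2.13, SE 0.455, adjusted p = 0.0066), Scd1 (log2 change -1.71, SE 0.499, adjusted p = 0.0295), Acaca (log2 change -1.60, SE 0.308, adjusted p = 0.00361), Acly (log2 change -0.96, SE 0.27, adjusted p = 0.0251), Elovl1 (log2 change -0.93, SE 0.26, adjusted p = 0.0245) and Slc27a1 (log2 change -0.95, SE 0.165, adjusted p = 0.00213).

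Adipocyte markers also differed between the days. Their sum lay between 2177 and 3543 CPM in Mutant nerves at 3 days, between 5467 and 7358 at 7 days and between 1987 and 6313 at 14 days. The sums at 7 and 14 days overlapped. Of the 10 markers 3 were called higher at 7 than at 3 days and 2 lower at 14 than at 7 days. Wild-type nerves at 14 days had the highest sums of the time course, between 8731 and 9772 CPM. Their means were 134 CPM for Fasn and 1162 CPM for Scd1, against 287 and 1923 CPM in Mutant nerves at 7 days. With an adipocyte covariate none of the 3 genes was called higher at 7 than at 3 days: Scd1 had a log2 change of 1.76, SE 0.611, adjusted p = 0.052, Fasn of 0.91, SE 0.471, adjusted p = 0.183, and Acaca of 0.41, SE 0.315, adjusted p = 0.378. Nor was any of the 6 called lower at 14 than at 7 days, where the log2 change was -1.54 for Fasn, -1.35 for Scd1, -1.11 for Acaca, -0.81 for Acly, -0.88 for Elovl1 and -0.65 for Slc27a1, with adjusted p between 0.0565 and 0.254. With this covariate 3540 of all genes were called at 7 against 3 days and 701 at 14 against 7 days, in place of 5299 and 2807. The covariate, a mean of log2 levels of part of the markers, was higher in every Mutant library at 7 days than at 3 or 14 days. Adipocyte content and day therefore cannot be told apart by it. In Mutant nerves skeletal muscle markers summed to between 4.11 and 272 CPM at 3 days and between 1226 and 2814 at 7 days. At 14 days the sum lay between 5905 and 146658 CPM. These sums did not overlap, so muscle content and day cannot be told apart by a muscle covariate. With that covariate 2 of the 10 genes were called at 14 against 7 days. Fibroblast markers summed to between 3093 and 3570 CPM at 3 days and between 8189 and 8686 at 7 days. Their part was not tested. The calls also rested on few libraries. Mutant replicate 1 at 7 days stood apart with 12779 CPM of myelin markers, against 1030 and 1181 CPM in its group. Without it 3 of the falls at 14 days were called, and Fasn at 7 against 3 days had a log2 change of 1.08 (adjusted p = 0.0982). Without Mutant replicate 2 at 14 days 3 of the falls were also called. Over all genes 1838 and 1917 were called in these fits at 14 against 7 days, in place of 2807. Without any 1 of the Mutant libraries at 3 days, 3 genes were called at 7 against 3 days, and Acaca and Fasn were not among them. Over all genes 4403, 3887 and 3929 were then called, in place of 5299. A fit of the compared groups alone called none of the 10 and 88 of all genes at 14 against 7 days.

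**Figure D5:**
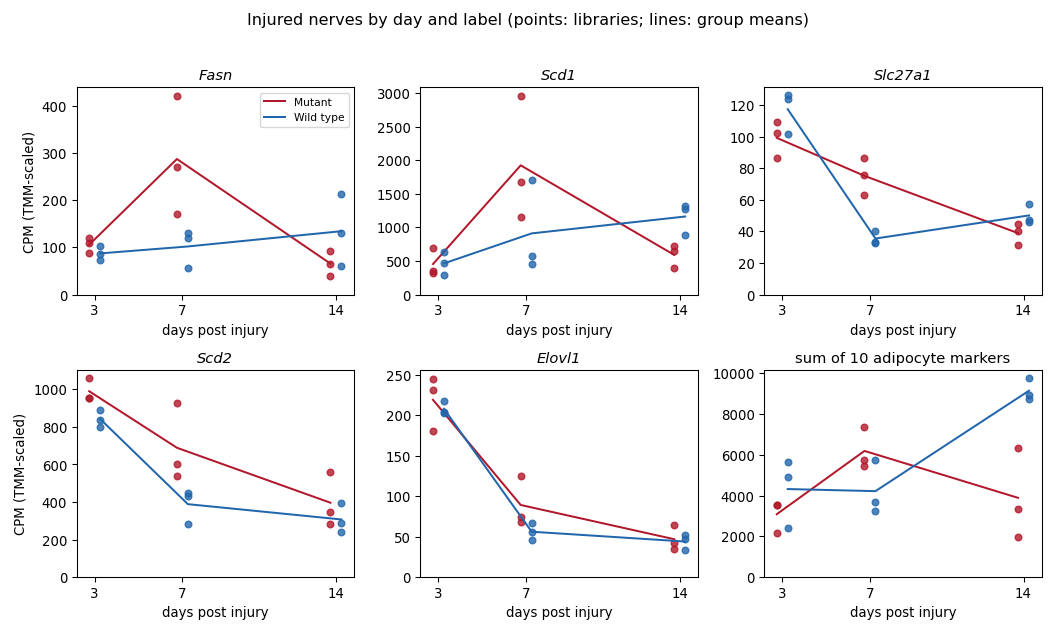
CPM of Fasn, Scd1, Slc27a1, Scd2 and Elovl1 and the summed CPM of 10 adipocyte markers in injured nerves by day, for Mutant (red) and Wild type (blue), with points for libraries and lines through group means (n = 3 each). Fasn in Mutant nerves is highest at 7 days, where its libraries lie between 172 and 419.8 CPM and the marker sum between 5467 and 7358 CPM, and Slc27a1 at 7 days is higher in every Mutant library than in every wild-type library.

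Mutant was then set against wild type at each time. At 7 days 6 of the 10 genes were higher in every Mutant library than in every wild-type library, against 10.4% of all genes. None was called by edgeR, which called 0% of all genes, and 8 of the 10 had an unadjusted p under 0.05, against 13.2% of all genes. DESeq2 called 1.57% of all genes and 4 of the 10, Slc27a1, Acaca, Fasn and Srebf1. Slc27a1 had 62.9, 86.7 and 75.9 CPM in Mutant nerves, against 32.7, 33.2 and 40.5 in wild-type nerves, with a log2 change of 1.08 (SE 0.165, adjusted p = 0.0638). Fasn had 419.8, 172 and 270.0 CPM in Mutant nerves, against 119.8, 129.7 and 56.1 in wild-type nerves (log2 change 1.49, SE 0.445, adjusted p = 0.238). Acaca had 104, 64 and 76.5 CPM in Mutant nerves, against 39.1, 46 and 30.2 in wild-type nerves (log2 change 1.09, SE 0.303, adjusted p = 0.209). Of the 10 genes Slc27a1 alone was called without wild-type replicate 3 (1.20, adjusted p = 0.0441) or without Mutant replicate 1 (1.21, adjusted p = 0.0469). Over all genes 11 and 2 were called in these fits. The adipocyte sum was between 5467 and 7358 CPM in Mutant nerves and between 3259.7 and 5727 CPM in wild-type nerves at this time. Macrophage markers summed to between 1588 and 3575 CPM in Mutant nerves and between 3678 and 3950.4 CPM in wild-type nerves, and endothelial markers to between 566 and 744 CPM in Mutant nerves and between 352 and 519 CPM in wild-type nerves. Skeletal muscle markers summed to between 1226 and 2814 CPM in Mutant nerves and between 2788 and 33236 CPM in wild-type nerves. Myelin markers summed to between 1030 and 12779 CPM in Mutant nerves and between 699 and 951 CPM in wild-type nerves. The groups did not overlap in macrophage, endothelial and myelin markers, and the part of these markers was not tested.

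At 3 days none of the 10 was called by either tool, edgeR calling 0% of all genes, and none had an unadjusted p under 0.05, against 1.89% of all genes. At 14 days none was called by either tool, edgeR calling 8.29% of all genes, and 2 of the 10 had an unadjusted p under 0.05, against 28.6% of all genes. Adipocyte markers at 14 days summed to between 1987 and 6313 CPM in Mutant nerves and between 8731 and 9772 CPM in wild-type nerves, which did not overlap, and their part was not tested. Fasn had -1.03 (SE 0.442, adjusted p = 0.141) and Scd1 -0.98 (SE 0.49, adjusted p = 0.2).

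The change of the Mutant effect over time was tested directly. Slc27a1 was the only gene of the 10 called, in the Mutant effect at 14 days minus that at 7 days, with -1.45 (SE 0.233, adjusted p = 0.0255), where 0.0946% of all genes were called, 0.0252% with a negative difference. It had 45, 31.5 and 40.2 CPM in Mutant nerves at 14 days, against 57.5, 45.7 and 47.1 in wild-type nerves, with every Mutant library below every wild-type library, whereas at 7 days every Mutant library was above. At 14 days 2 of the 10 genes lay apart in this way, and the share of all genes was not obtained. The call was lost without any 1 of 8 of the 12 libraries at these times (log2 differences between -1.54 and -1.34, adjusted p between 0.0516 and 0.0894), with the replicate number as a block (-1.45, adjusted p = 0.0552), with an adipocyte covariate (-0.99, adjusted p = 0.302) and in a fit of these groups alone (-1.46, adjusted p = 0.0965). These 8 are wild-type replicates 1 and 2 at 7 days, Mutant replicates 2 and 3 at 7 days, all 3 wild-type replicates at 14 days and Mutant replicate 3 at 14 days. Fasn had -2.53 (SE 0.627, adjusted p = 0.103) and Acaca -1.54 (SE 0.429, adjusted p = 0.128) in the same test. For the effect at 7 days minus that at 3 days none was called by edgeR (0% of all genes), and 3 of the 10 had an unadjusted p under 0.05, against 6.43% of all genes. DESeq2 called 0.2% of all genes and 1 of the 10, Slc27a1, which had 1.33 (SE 0.231, adjusted p = 0.287) by edgeR.

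The remaining comparisons concern the labels Mitf, DhhCre and Egr2Cre in nerves that are not labelled as injured, and none of the 10 genes was called in any of them by edgeR or DESeq2. Mitf against DhhCre at P21 had 0.0143% of all genes called, and none of the 10 at an unadjusted p under 0.05, against 2.93% of all genes. Fasn had 882, 1054, 859, 640.0 and 722 CPM in Mitf nerves, against 789, 923, 725, 778 and 855 in DhhCre nerves, and a log2 change of 0.03 (SE 0.12). The 10 log2 changes lay between -0.09 for Slc27a1 and 0.25 for Acsl3, whose SE of 0.264 was the widest. Mitf against Egr2Cre at P12 had 0.0139% called and none of the 10 at an unadjusted p under 0.05, against 2.57% of all genes, with log2 changes between -0.14 for Elovl1 and 0.22 for Acaca. Mitf against control in the table with Ndrg1 had 0.00629% called and none of the 10 at an unadjusted p under 0.05, against 6.25% of all genes, and its SE was between 0.0945 for Slc27a1 and 0.256 for Scd1. Scd2 had a lowest of 5659, a median of 7291 and a highest of 8417 CPM in Mitf nerves, against a lowest of 6476, a median of 8058 and a highest of 8670.3 in control nerves, with -0.09 (SE 0.141).

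Egr2Cre Mitf against Mitf had 0% of all genes called, and 1 of the 10 genes, Fasn, at an unadjusted p under 0.05, against 4.33% of all genes. All 10 log2 changes were above 0, the greatest that of Fasn, which had 206, 197 and 122 CPM in Egr2Cre Mitf nerves, against 108, 92.8 and 121 in Mitf nerves (log2 change 0.71, SE 0.208, adjusted p = 0.846). Every Egr2Cre Mitf library was above every Mitf library for Fasn, by 122 against 121 CPM at the nearest, which held for 5.22% of all genes. Skeletal muscle markers were abundant in both groups, with sums between 19446 and 29131 CPM in Egr2Cre Mitf nerves and between 16950.5 and 75670.0 CPM in Mitf nerves.

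Over the 22 group means, each centred within its table, the 10 genes did not form a single pattern. Fasn was most like Acaca (Pearson r = 0.949) and Acly (0.904) among the other members and least like Slc27a1 (0.352). Scd2 was most like Elovl6 (0.964), Elovl1 (0.937) and Acsl3 (0.903) and least like Scd1 (0.158), its close paralog in the same gene cluster. Among the other genes of the 11974 that passed the filter in all 8 tables, Jmjd8 (0.950), Sgce (0.936), Ankrd46 (0.935), the citrate carrier Slc25a1 (0.934) and Ermp1 (0.934) were most like Fasn. Adamtsl1 (0.983), Plpp3 (0.981), Tgfa (0.977), Mboat1 (0.976) and Sema5a (0.976) were most like Scd2. These correlations describe 22 points that share tables, libraries and composition of the tissue.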

How the data were processed

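The authors deposited 8 tables of estimated counts per gene, made with kallisto on mm10 per the submitters' processing notes; for the version, the transcript set and the step from transcript to gene, the entry is: not given in the sources used here. Per the labels' protocols, RNA came from dissected, frozen sciatic nerves and libraries were made with a stranded mRNA kit. Columns were matched to samples by name, and 0 columns were left unused.

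The estimated counts were rounded, and each table was filtered with filterByExpr (minimum count 10), scaled by TMM and fitted with edgeR 4.0.16 (R 4.3.3, limma 3.58.1) by the robust quasi-likelihood test over all groups of the table. Benjamini-Hochberg adjustment ran over all genes of a comparison (threshold 0.05), for 22 comparisons, 4 of them differences between effects. The Fig4 tables were joined for the difference between ages. The SE of a log2 change was obtained as its size over the root of the F statistic. CPM were computed from the rounded counts. Apart from the age difference, tests were run within a table only.

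The members and all lists were chosen with earlier results of these data known. Named genes are the members, up to 3 genes a list with the smallest p plus those needed to account for a small count, and the 5 genes most like Fasn and the 5 most like Scd2. No replicates were duplicates: chi-square over degrees of freedom between replicates was 9.607 or more, in genes averaging 20 counts or more. Same-numbered libraries deviated together (every correlation over 0.1) in the table with DhhCre (0.119 to 0.299) and in that with Egr2Cre Mitf (0.123 to 0.34), a pairing that comes from the data and not from the labels. There the replicate block changed no call among the 10 genes. The alternatives were no low-count filter, RLE scaling, DESeq2 1.42.0, the replicate block, adipocyte or skeletal muscle markers as a covariate, a fit of the compared groups alone, and leaving out each library. The scripts were tested on simulated counts.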

Additional observations from a re-analysis of the deposited data

Results flagged for a closer look

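Of 80 pairs of a gene and a group with 4 to 10 libraries, 4 held a library far from the others of its group, and chance gives about 1 in 20. Acsl3, which couples fatty acids to CoA, had 253.0 CPM in replicate 1 of the nerves taken 3 days post injury, while the other 3 libraries lay between 41.4 and 62.8 CPM. In Mitf-Ndrg1 nerves, replicate 4 had 551.3 CPM of Fasn, with the other 4 libraries between 175 and 248 CPM, and 2503 CPM of Scd1, with the others between 587 and 989 CPM. The same library had the highest sum of adipocyte markers in its group, 944 CPM, and of skeletal muscle markers, 17996 CPM; their part was not tested. Slc27a1 had 194.4 CPM in control replicate 1 of the table with Ndrg1, with the other 5 libraries between 143 and 158 CPM.

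The Mutant effect on Slc27a1 differed between 14 and 7 days post injury by -1.449 on the log2 scale, by a test of the difference itself.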

How the results depend on the processing

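None of the called changes in the 10 genes reversed under any alternative. Of these changes, 345 results under the other alternatives stayed on their side of the threshold and 50 did not. With a single library left out these numbers were 423 and 61. The related genes and markers were not run under the alternatives. The cause of a moved count was not tested.

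Without the low-count filter, the 10 genes gave 3 calls in place of 5 for Mutant at 7 against 3 days and 1 in place of 0 for Mutant against wild type at 7 days, where RLE scaling also gave 1. DESeq2 gave 2 in place of 0 for the difference between the Fig4 ages, 1 in place of 0 for wild type at 14 against 7 days, 4 in place of 0 for Mutant against wild type at 7 days, 1 in place of 0 for the Mutant effect at 7 minus 3 days and 3 in place of 1 for that at 14 minus 7 days. With the replicate block, Fig4 at P12 gave 4 in place of 7 and the Mutant effect at 14 minus 7 days 0 in place of 1. In those tables the libraries share only a number, and the block moved no other count of the 10 genes by over 1.5 times. The adipocyte covariate gave 4 for Fig4 at P12, 1 in place of 0 at P4, 1 in place of 0 for the age difference, 3 for Mutant at 7 against 3 days, 0 in place of 6 at 14 against 7 days and 0 in place of 1 for the Mutant effect at 14 minus 7 days. The skeletal muscle covariate gave 1 for Fig4 at P12, 1 for the age difference, 3 in place of 5 for wild type at 7 against 3 days and 2 for Mutant at 14 against 7 days. The compared groups alone gave 0 for Mutant at 14 against 7 days and 0 for the Mutant effect at 14 minus 7 days. Leaving out both P4 libraries rich in muscle and adipocyte markers gave 1 for the age difference, and leaving out the 3 Mitf-Ndrg1 libraries rich in adipocyte markers gave 2 in place of 0 against Ndrg1; both choices were made after seeing the data.

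With a single library left out, calls ranged from 2 to 7 for Fig4 at P12, 4 to 7 for injury, 4 to 5 for wild type at 7 against 3 days, 3 to 6 for Mutant at 7 against 3 days, 3 to 7 at 14 against 7 days, 0 to 1 for Mutant against wild type at 7 days, 0 to 1 for the Mutant effect at 14 minus 7 days, 8 to 9 for Mitf-Ndrg1 against control and against Mitf and 0 to 2 against Ndrg1. Ndrg1 against control stayed at 10 and all other comparisons at 0.

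Counts over all genes also moved. For Fig4 at P12 435 genes were called, 1131 without the filter, 977 by DESeq2 and 106 with the muscle covariate. For Fig4 at P4 1 gene was called and 346 with the adipocyte covariate. For injury 3365 were called and 1268 with the muscle covariate. For Mutant at 14 against 7 days 2807 were called and 88 in the compared groups alone.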

Other observations

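Some of the 10 genes stood at different levels in 2 tables of nerves at P12, and others did not. Wild-type Fig4 +/+ nerves at P12 averaged 127 ± 19.1 CPM of Fasn and 10.9 ± 2.23 CPM of Srebf1 (SD, n = 3), while Egr2Cre nerves at P12 averaged 595 ± 86.6 and 78.9 ± 6.91 CPM (SD, n = 3). Scd1 had the other order, with 2847 ± 424 CPM in Fig4 +/+ nerves and 1297 ± 409.8 CPM in Egr2Cre nerves. Acaca averaged 286 ± 52.6 CPM in Fig4 +/+ nerves and 285 ± 35.0 CPM in Egr2Cre nerves, and Scd2 7665 ± 1071 and 7693 ± 489 CPM (SD, n = 3). These genes were chosen after their values were seen. The tables were processed apart and hold different numbers of genes, and the cause was not tested.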
